A study of Mus musculus with 20 samples.

Results

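The ankyrin repeat and SOCS-box genes described here are Asb2, Asb4, Asb5, Asb8, Asb10, Asb11, Asb12, Asb14, Asb15 and Asb18, that is, 10 of the 27376 gene names on the array. They were chosen by name as a muscle set of the family, though 6 other Asb genes were also measured in this muscle. The values of the 10 genes on these arrays were already known. Their differences are therefore given as descriptions without p-values, and counts of calls among them stand only beside the share of all genes called. The array carries 16 probes for them. Of these, 12 probes of 8 genes passed the filter, and Asb11 and Asb12 are described from the arrays on which their spots were usable.

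Transcripts were measured with 20 one-colour arrays in the EDL (extensor digitorum longus), a hindlimb muscle made mostly of fast fibres, from 10 male C57Bl6 mice. At 8 weeks of age each mouse received recombinant adeno-associated virus of serotype 6 by intramuscular injection of both hindlimbs, 30 µL per injection. The right leg received vectors for D832N HDAC4 and D861N HDAC5 (dnHDAC4/5), 2 class IIa histone deacetylases made dominant negative by a point mutation, at 2.5e+10 vector genomes each, and the left leg an empty vector. After 4 weeks, 5 mice were injected in the peritoneum with Scriptaid, a hydroxamate inhibitor of histone deacetylases, and 5 with its vehicle, 5% DMSO in PBS. The 4 groups of 5 arrays are HV (dnHDAC4/5, vehicle), EV (empty vector, vehicle), HS (dnHDAC4/5, Scriptaid) and ES (empty vector, Scriptaid), and HV 5 stands for replicate 5 of HV. All 4 groups thus carry viral vector and an injection, none is untreated, and HV with EV and HS with ES are the 2 legs of the same animals. The labels call the second step a cross-over, but each animal carries 1 injection label. The promoter of the vectors, the dose of Scriptaid and the time from injection to collection are not stated in the labels. The titles of the ES samples name vehicle, whereas their treatment entries and animal identifiers name Scriptaid, which was followed.

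Asb proteins carry a stack of ankyrin repeats, which hold a target protein, and a SOCS box at the C terminus, which binds elongin B and elongin C. Through these they join cullin 5 and the RING protein Rnf7 in an E3 ubiquitin ligase, so that each Asb protein is the substrate receptor of its own ligase. Several family members are transcribed mostly in skeletal muscle and heart. Class IIa deacetylases bind MEF2 factors at muscle genes and hold their transcription down, which is the background to the question of what a block of HDAC4 and HDAC5 does to muscle transcripts.

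The promoters of Asb10, Asb14 and Asb18 are shown because their values varied together over the arrays (described further on). Each is the 250 bases before the gene's start, 5′ to 3′ on the gene's strand, from RefSeq on GRCm38.p6, at chr5:24540979-24541228 (minus strand) for Asb10, chr14:26894364-26894613 (plus strand) for Asb14 and chr1:90014667-90014916 (minus strand) for Asb18. Capitals mark matches, on either strand, to the E-box CAGCTG, to the MCAT element CATTCC, or to the MEF2 site.
Asb10: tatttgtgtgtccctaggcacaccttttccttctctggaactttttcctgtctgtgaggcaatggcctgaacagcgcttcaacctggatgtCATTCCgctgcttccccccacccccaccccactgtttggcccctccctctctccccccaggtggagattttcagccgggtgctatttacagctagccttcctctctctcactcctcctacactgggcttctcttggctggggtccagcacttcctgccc
Asb14: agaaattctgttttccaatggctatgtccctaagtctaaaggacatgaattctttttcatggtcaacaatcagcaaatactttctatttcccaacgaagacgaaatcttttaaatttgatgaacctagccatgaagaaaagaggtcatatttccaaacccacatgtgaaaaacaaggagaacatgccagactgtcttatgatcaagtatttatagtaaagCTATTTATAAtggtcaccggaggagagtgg
Asb18: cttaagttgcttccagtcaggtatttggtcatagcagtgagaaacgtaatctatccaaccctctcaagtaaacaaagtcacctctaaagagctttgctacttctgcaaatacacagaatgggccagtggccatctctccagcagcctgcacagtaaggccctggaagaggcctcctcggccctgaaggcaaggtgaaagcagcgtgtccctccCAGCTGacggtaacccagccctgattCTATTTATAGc

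The windows of Asb14 and Asb18 each hold a MEF2 site, CTATTTATAA starting 30 bases before the start of Asb14 and CTATTTATAG starting 11 bases before that of Asb18. The Asb18 window also holds an E-box 37 bases before the start, and the Asb10 window an MCAT element 159 bases before it. All 10 genes had a promoter in the table, 15 windows in all. A MEF2 site was present in 4 of these 15 windows (1 each of Asb5, Asb12, Asb14 and Asb18), against 2.92% of all 32851 windows of this length. The MCAT element was present in 2 of the 15 windows (1 each of Asb8 and Asb10), against 12.6% of all windows. The E-box was present in 1 of the 15 (Asb18), against 13.0%. Neither Asb4 window held any of the 3 motifs. A match is a run of letters and not a shown binding site.

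Where a gene has several probes, they did not always give the same value, so the stretches they read are shown for Asb4 and Asb15. Each line gives the first 30 of the 60 bases of a probe as the files list it.
Asb4 A_52_P594756: gtcatagtgttgcaatgtttcccttagtct
Asb4 A_51_P332998: gaatcatttactaagtcttaggagacaaca
Asb15 A_52_P1101647: attataccataatgtatttaactcgaactg
Asb15 A_52_P416899: ttttttgacatttttatcataagagtaaat
Asb15 A_51_P160897: gacatcatgcataataaaagataatccgtt

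Every value below is the log2 of the processed intensity of a spot minus the log2 of the 75th percentile of its array, so 0 is as bright as that percentile. Levels of different probes cannot be compared on this scale. The 75th percentile lay between 248.4 and 608.1 intensity units and the share of spots well above background between 51.7% and 61.3%. Low spots were counted among spots well above background on at least 10 arrays, as those more than 3 log2 units below the median of the other arrays. The arrays of the HS group had more of them in the edge zone, the outermost 12 rows and 2 columns on each side. They made up 5.93% to 10.2% of such edge spots in HS, against 0.0575% to 2.13% on the other 15 arrays. EV 5 had the most low spots away from the edges, 1.5%. Of the probes described here, those of Asb14 and Asb12 and 1 of Asb8 lie in the edge zone. Each group took the same place on every slide, so an effect of place cannot be told apart from that of group. The probes for native Hdac4 and Hdac5 do not check the vectors, since the sequences of the vectors are not given. Hdac4 averaged 1.24 ± 0.23 in HV (SD, n = 4), 0.95 ± 0.23 in EV, 1.25 ± 0.56 in HS and 0.95 ± 0.32 in ES (n = 5 each), and these groups overlapped. Hdac5 averaged 3.18 ± 0.11 in HV (n = 5) and 3.19 ± 0.35 in EV (n = 4). Under Scriptaid Hdac5 averaged 3.46 ± 0.21 in HS (n = 3) and 3.465 ± 0.17 in ES (n = 5), and its groups overlapped too.

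**Figure D1:**
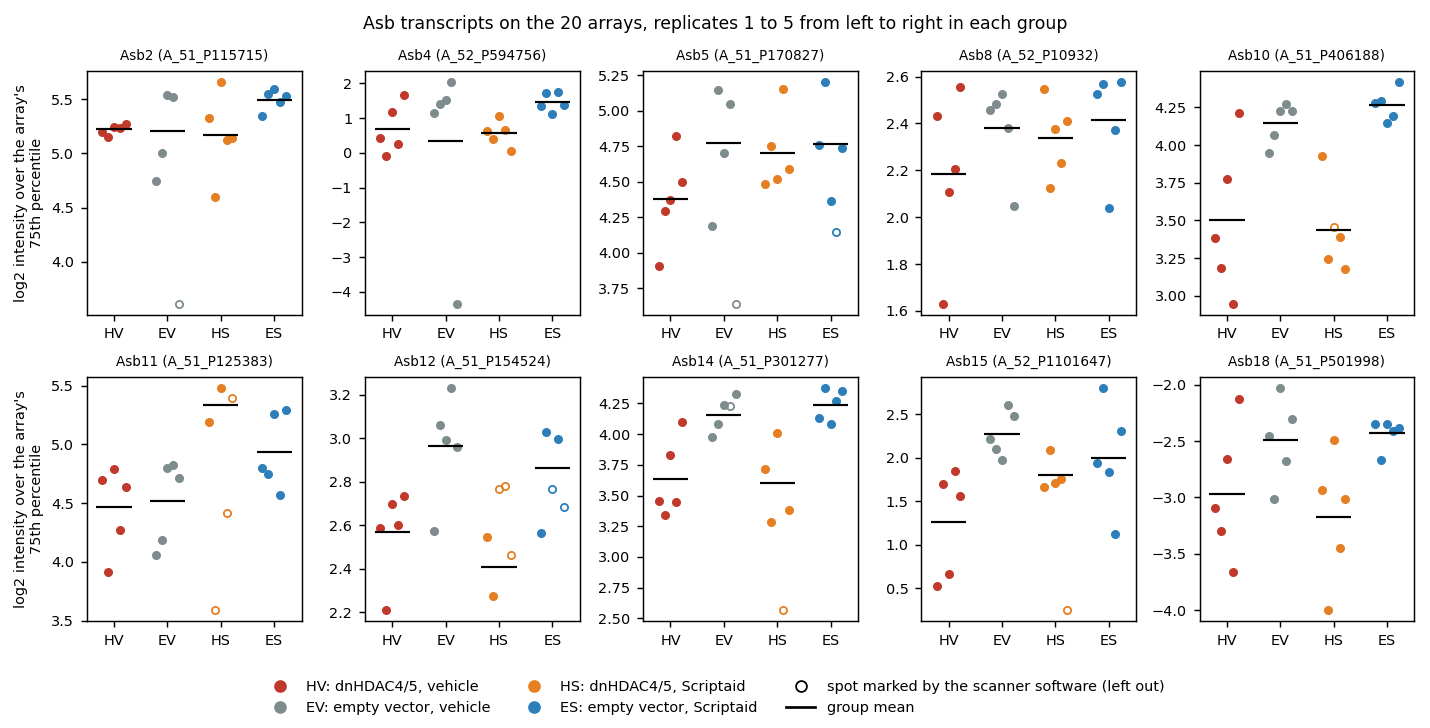
Log2 intensity over the array's 75th percentile (vertical axis) of 1 probe for each of the 10 Asb genes in the HV, EV, HS and ES groups, 1 point per array, with a bar at the group mean. Open points are spots that the scanner software marked and that were left out. In Asb10 and Asb14 the HV and HS points lie mostly below the EV and ES points, with HV 5 among the EV values.

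The fitted differences of Asb10, Asb14 and Asb18 between dnHDAC4/5 and empty-vector legs were negative under vehicle and under Scriptaid, and for Asb18 the groups overlapped in both. Asb10, of which variants have been linked to glaucoma in people, read 3.38, 3.19, 3.78, 2.95 and 4.21 in HV 1 to 5, against 3.95, 4.07, 4.22, 4.27 and 4.23 in EV 1 to 5. Under Scriptaid it read 3.93, 3.24, 3.39 and 3.18 in HS 1, 2, 4 and 5 (the HS 3 spot was left out), against 4.28, 4.29, 4.15, 4.2 and 4.42 in ES 1 to 5. Every HS value was below every ES value, and every HV value except that of HV 5 was below every EV value. The fitted difference was -0.65 ± 0.20 in vehicle animals (HV minus EV) and -0.83 ± 0.21 in Scriptaid animals (HS minus ES), as log2 ± SE. Averaged over both injections it was -0.74 ± 0.14, which is 1.67-fold lower with dnHDAC4/5. The dnHDAC4/5 leg was the lower one in all 9 animals with both spots, with differences between -1.33 and -0.01.

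Asb14, another ankyrin and SOCS-box receptor, gave the same picture. It read 3.45, 3.34, 3.83, 3.45 and 4.10 in HV 1 to 5, against 3.98, 4.08, 4.23 and 4.33 in EV 1, 2, 3 and 5. It read 3.71, 3.29, 4.01 and 3.38 in HS 1, 2, 3 and 5, against 4.13, 4.37, 4.08, 4.27 and 4.35 in ES 1 to 5. As with Asb10, no HS value reached an ES value, and HV 5 alone lay among the EV values. The fitted differences were -0.52 ± 0.17 in vehicle animals and -0.64 ± 0.17 in Scriptaid animals, and -0.58 ± 0.12 averaged over both, 1.5-fold lower with dnHDAC4/5. All 8 animals with both spots had the lower value in the dnHDAC4/5 leg. The probe lies in the edge zone, so it has no value without edge spots.

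Asb18 was dim, and well above background on all 20 arrays. Its values were -3.09, -3.30, -2.66, -3.66 and -2.13 in HV, against -2.45, -3.01, -2.03, -2.68 and -2.30 in EV. They were -2.93, -4.0, -2.49, -3.45 and -3.02 in HS, against -2.35, -2.66, -2.35, -2.41 and -2.39 in ES. Both pairs of groups overlapped, and the ES values lay close together with an SD of 0.13, against 0.57 in HS. The fitted difference was -0.47 ± 0.28 in vehicle animals, -0.75 ± 0.28 in Scriptaid animals and -0.61 ± 0.20 averaged over both. The dnHDAC4/5 leg was lower in 9 of 10 animals, the exception being the fifth vehicle animal, at 0.17.

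Asb4 is known to bind factor-inhibiting HIF (Hif1an) and insulin receptor substrate 4, the first in vascular cells. Its brighter probe, A_52_P594756, read 0.44, -0.09, 1.19, 0.26 and 1.68 in HV, against 1.15, 1.4, 1.53, 2.05 and -4.34 in EV. The spot of EV 5, at -4.34, was the only 1 of its 20 spots not well above background. Under Scriptaid this probe read 0.64, 0.40, 1.05, 0.66 and 0.05 in HS, against 1.35, 1.73, 1.12, 1.77 and 1.39 in ES, without overlap. The vehicle difference rested on EV 5. It was 0.34 ± 0.82 with that array and -0.84 without it, while the Scriptaid difference was -0.91 ± 0.82. The 4 groups share a single estimate of the spread, so the SE in Scriptaid animals also carries the EV 5 spot. The SD of this probe was 0.37 in HS and 0.27 in ES, against 2.64 in EV.

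The second Asb4 probe, A_51_P332998, was dimmer, and was not well above background on HV 2, HV 4 and HS 5. It averaged -3.82 ± 0.92 in HV and -2.63 ± 0.35 in EV, and -3.73 ± 0.46 in HS and -2.67 ± 0.35 in ES (SD, n = 5 each). In EV 5 it read -2.27, the highest EV value. Its fitted differences were -1.19 ± 0.34 in vehicle animals and -1.06 ± 0.34 in Scriptaid animals. It was lower in the dnHDAC4/5 leg in 10 of 10 animals, though in the third Scriptaid animal by only 0.0008 log2 units.

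Asb15, which has been tied to muscle growth and protein turnover in cultured myoblasts and rodent muscle, has 3 kept probes. The brightest, A_52_P1101647, read 0.53, 1.70, 0.67, 1.84 and 1.56 in HV, against 2.22, 2.10, 1.97, 2.60 and 2.49 in EV, without overlap. It read 1.66, 2.09, 1.71 and 1.76 in HS 1 to 4 (the marked spot of HS 5 was left out), against 1.94, 2.80, 1.84, 1.12 and 2.31 in ES, which overlapped. Its difference was -1.02 ± 0.29 in vehicle animals and -0.20 ± 0.31 in Scriptaid animals, or -0.51 in Scriptaid animals with marked spots kept. The second probe, A_52_P416899, differed by -0.81 ± 0.23 and -0.66 ± 0.23 in the same order of comparisons, and was lower in the dnHDAC4/5 leg in 10 of 10 animals. The third, A_51_P160897, was well above background on 2 of 5 arrays in HV and 3 of 5 in EV, and on 4 of 5 in HS and 5 of 5 in ES, so the size of its difference is not given. For the first 2 probes the sign was negative in both comparisons, and the size under Scriptaid differed by probe.

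Asb8 also gave different sizes by probe. A_52_P10932 averaged 2.19 ± 0.36 in HV and 2.38 ± 0.19 in EV, and 2.34 ± 0.16 in HS and 2.42 ± 0.23 in ES (SD, n = 5 each), with differences of -0.19 ± 0.16 and -0.08 ± 0.16. A_52_P508985 averaged 1.92 ± 0.29 in HV and 2.29 ± 0.16 in EV, and 1.86 ± 0.26 in HS and 2.29 ± 0.11 in ES. Its differences were -0.37 ± 0.14 and -0.43 ± 0.14, and it was lower in the dnHDAC4/5 leg in 9 of 10 animals, with the last at 0.01. The third Asb8 probe lay in the edge zone, was marked on 9 arrays and failed the filter.

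For Asb2 and Asb5 all groups overlapped. Asb2, whose muscle isoform directs filamin B to the proteasome, averaged 5.22 ± 0.04 in HV (n = 5) and 5.20 ± 0.39 in EV (n = 4), and 5.17 ± 0.39 in HS and 5.50 ± 0.10 in ES (n = 5 each). The vector difference was 0.02 ± 0.18 in vehicle animals and -0.33 ± 0.17 in Scriptaid animals. Asb5, first described in growing collateral arteries of rabbits, averaged 4.38 ± 0.33 in HV (n = 5) and 4.77 ± 0.43 in EV (n = 4), and 4.70 ± 0.28 in HS (n = 5) and 4.77 ± 0.34 in ES (n = 4). Its vector difference was -0.39 ± 0.23 in vehicle animals and -0.07 ± 0.23 in Scriptaid animals. The dnHDAC4/5 leg was lower for Asb5 in 4 of 4 vehicle and 3 of 4 Scriptaid animals with both spots, and for Asb2 in 6 of 9 animals.

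Asb11 and Asb12 did not enter the fit, because marked spots left 2 HS arrays for each. Asb11, which acts on the Notch ligand Delta in zebrafish, averaged 4.46 ± 0.37 in HV and 4.52 ± 0.36 in EV (n = 5 each) and read 5.19 and 5.48 in HS 1 and 3, against 4.93 ± 0.32 in ES (n = 5). Its other probe was well above background on 4 of 20 arrays, 1 in HS and 3 in ES. Asb12 averaged 2.57 ± 0.21 in HV and 2.96 ± 0.24 in EV (n = 5 each) and read 2.55 and 2.27 in HS 1 and 2, against 2.86 ± 0.26 in ES (n = 3). With marked spots kept, the vector difference averaged over both injections was -0.09 for Asb11 and -0.32 for Asb12.

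**Figure D2:**
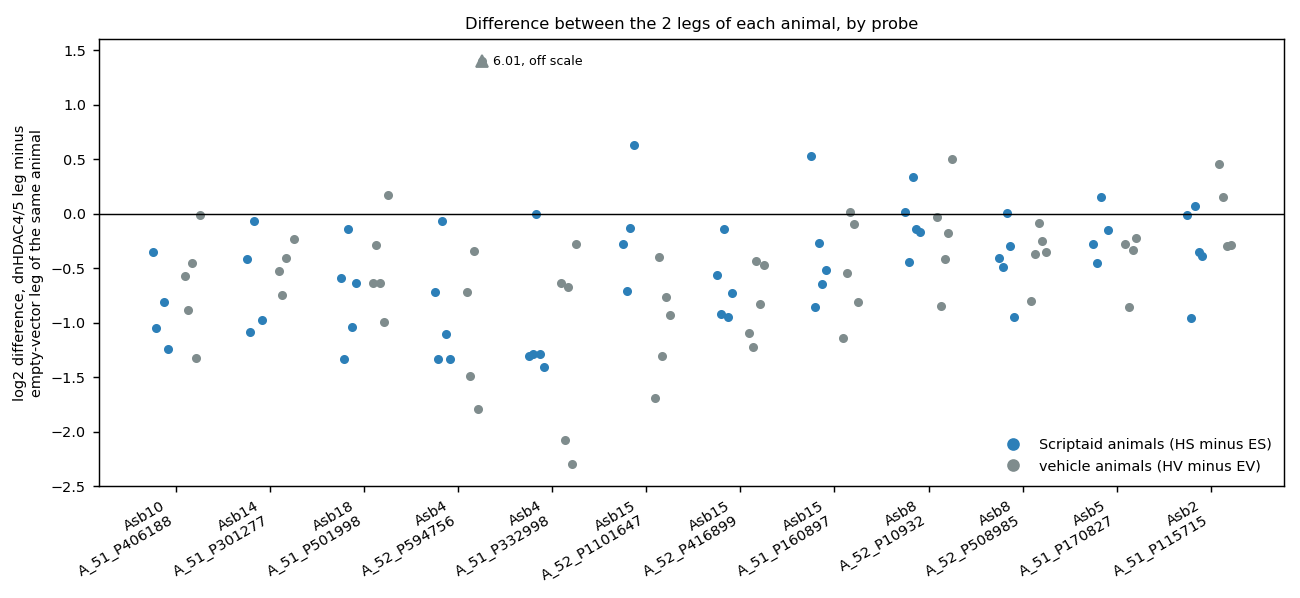
Log2 difference between the dnHDAC4/5 leg and the empty-vector leg of the same animal (vertical axis) for 12 probes of 8 Asb genes, 1 point per animal, Scriptaid animals left and vehicle animals right within each probe. Nearly all points of Asb10, Asb14, Asb18, the dim Asb4 probe and Asb15 A_52_P416899 lie below 0, and the Asb4 point at 6.01 is the pair with EV 5.

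Over the 8 genes in the fit, the median vector difference was -0.43 in vehicle animals, -0.48 in Scriptaid animals and -0.43 averaged over both injections, beside medians over all 15738 genes tested of -0.002, 0.03 and 0.02. All 8 were on the lower side in the average, but Asb2, Asb5 and Asb8 moved to the higher side with normexp background correction. Asb2 was also on the higher side with marked spots kept and with the authors' series table. In limma, with p-values adjusted over all genes, 2 of the 8 (Asb10 and Asb14) were under 0.05 in the average, where 1.09% of all genes were called (82 higher and 90 lower, or 52 and 149 with normexp). Without edge spots it was 1 of 7 (Asb10), beside 0.577% of all genes. With the animal, which pairs the legs, as a block, Asb10 stayed under 0.05 and Asb14 did not. None was called in vehicle animals, where 0% of genes were, nor in Scriptaid animals, where 1.24% were. In Scriptaid animals Asb10 and Asb14 were called with quantile normalization, with the authors' series table and with marked spots kept, where 238, 91 and 202 of all genes were. At an unadjusted p under 0.05 the counts were 3 of 8 in vehicle animals (4.64% of all genes), 3 of 8 in Scriptaid animals (11.7%) and 4 of 8 in the average (12.2%). The groups did not overlap, with the dnHDAC4/5 legs lower, for 1 of 8 in vehicle animals (0.318% of all genes) and for 3 of 8 in Scriptaid animals (1.36%). The dnHDAC4/5 leg was lower in every measured pair for 2 of 8 (1.19%). Since the genes were chosen with these contrasts known, nothing is read from these counts. In whole muscle, fewer cells of a type and less transcript per cell cannot be told apart.

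Markers of fibre types and of other cells are given beside these genes. All 10 fast and all 6 slow muscle markers were above background on at least 1 array, and of 5 cardiac markers Myl7 was above background on none. In the averaged vector comparison 5 of 6 slow muscle markers were lower, with a median of -0.48. Their summed linear level ran from 137 to 186 in HV and from 160 to 241 in EV, and from 106 to 212 in HS and from 105 to 168 in ES. All 5 Schwann cell markers were lower, with a median of -0.42 and a summed level of 4.75 to 15.0 in HV and 7.31 to 24.8 in EV, and of 7.98 to 18.7 in HS and 6.76 to 13.0 in ES. All 4 measured cardiac markers were lower too, with a median of -0.37 and a summed level of 0.383 to 1.35 in HV and 1.07 to 3.29 in EV, and of 1.25 to 1.72 in HS and 0.693 to 2.08 in ES. All 5 endothelial markers were lower, with a median of -0.12 and a summed level of 12.7 to 19.2 in HV and 12.01 to 19.2 in EV, and of 10.2 to 15.8 in HS and 12.2 to 20.6 in ES. All 8 measured fast muscle markers were higher, with a median of 0.09, as were 4 of 5 macrophage markers (0.08), 4 of 5 tendon markers (0.14) and 3 of 5 satellite cell markers (0.13), while both measured red blood cell markers were lower (-0.09). All 5 adipocyte markers were higher, with a median of 0.74 and a summed level of 2.32 to 57.3 in HV and 7.21 to 88.0 in EV, and of 7.23 to 172.6 in HS and 1.45 to 93.4 in ES. The summed levels overlapped between the legs for each of these lists, and their part in the Asb values was not tested.

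Scriptaid was compared with vehicle within each vector, which asks whether the inhibitor alone goes with a change in these transcripts. In empty-vector legs (ES minus EV) Asb10 differed by 0.12 ± 0.20, Asb14 by 0.09 ± 0.17, Asb18 by 0.06 ± 0.28, Asb5 by -0.01 ± 0.24, Asb8 by 0.04 ± 0.16, Asb15 by -0.27 ± 0.29 and Asb2 by 0.29 ± 0.18. Asb4 differed by 1.11 ± 0.82 on its brighter probe, or -0.06 without EV 5, and by -0.04 ± 0.34 on its second probe. All of these groups overlapped, whereas 0.299% of all genes were lower and 0.718% higher in ES without overlap. In dnHDAC4/5 legs (HS minus HV) the differences lay between -0.21 ± 0.28 for Asb18 and 0.54 ± 0.31 for Asb15, with -0.07 ± 0.21 for Asb10 and -0.04 ± 0.17 for Asb14. No member was called in either comparison, where 0% and 1.28% of all genes were, and at an unadjusted p under 0.05 there was again none of 8, beside 3.83% and 10.6% of all genes.

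The vector difference under Scriptaid minus that under vehicle was -0.19 ± 0.28 for Asb10, -0.12 ± 0.24 for Asb14, -0.27 ± 0.39 for Asb18 and 0.82 ± 0.42 for Asb15 on its brightest probe (0.51 with marked spots kept), against 0.15 ± 0.33 on the second Asb15 probe. For Asb4 it was -1.25 ± 1.16 on the brighter probe, or -0.07 without EV 5, and 0.13 ± 0.48 on the other. None of the 8 was called in this interaction, where 0.178% of genes were, and none of 8 had an unadjusted p under 0.05, beside 4.07% of genes. The HV and EV arrays enter both the interaction and the vector comparison in vehicle animals, so these values are not independent of each other.

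**Figure D3:**
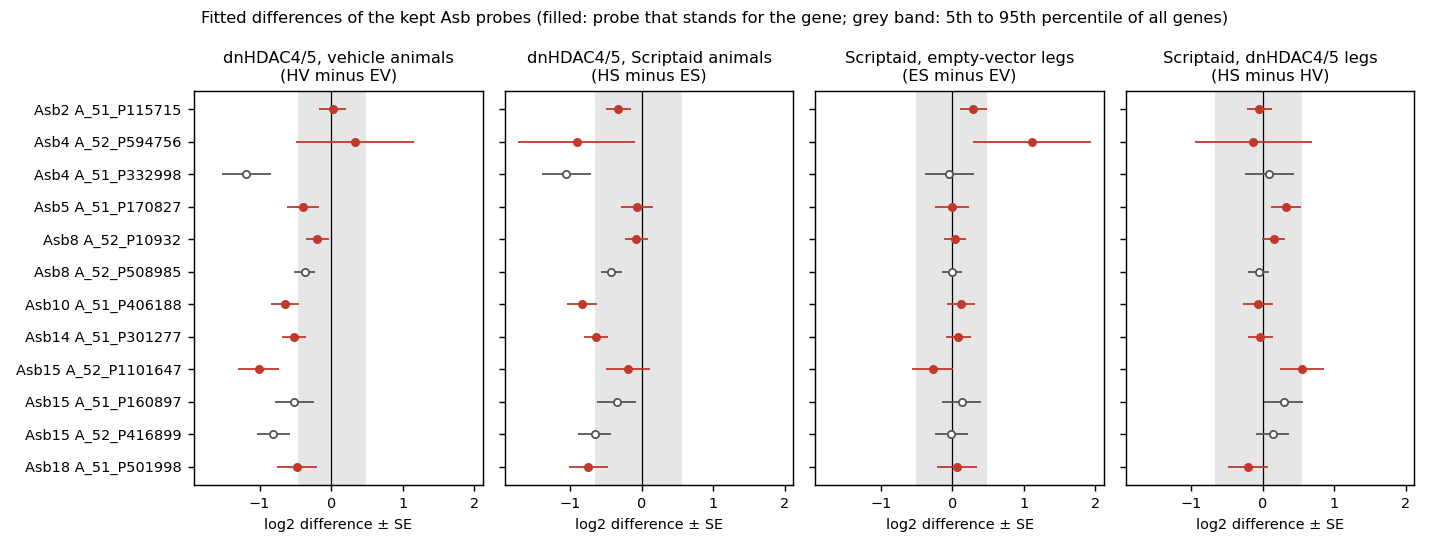
Fitted log2 differences ± SE (horizontal axis) of the 12 kept Asb probes in 4 comparisons, with filled points for the probe that stands for the gene and open points for further probes. The grey band spans the 5th to the 95th percentile of all genes tested. The points of Asb10, Asb14 and Asb18 lie left of 0 in both vector panels and near 0 in both Scriptaid panels.

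Asb10, Asb14, Asb18 and the dim Asb4 probe varied together from array to array, also within the dnHDAC4/5 legs. Over arrays with both spots, Asb10 and Asb14 gave Pearson's r = 0.95 and Spearman's rho = 0.94 (17 arrays), and r = 0.97 without the 2 arrays farthest from the Asb10 median. Within the dnHDAC4/5 arrays r was 0.91 (8 arrays), and within the empty-vector arrays 0.82 (9 arrays). For Asb10 and Asb4 A_51_P332998, r was 0.92 within 9 dnHDAC4/5 arrays and 0.40 within 10 empty-vector arrays. For Asb10 and Asb18 it was 0.82 within 9 dnHDAC4/5 arrays and 0.22 within 10 empty-vector arrays. The array HV 5 lay at the top of the HV group for all 4 of these probes, and HV 3 was the next highest for each. The brighter Asb4 probe gave r = 0.24 with Asb10 and 0.13 with Asb14, or 0.91 (18 arrays) and 0.94 (17 arrays) without EV 5. Asb8 A_52_P508985 gave r = 0.75 with Asb10 (19 arrays) and 0.86 with Asb14 (18 arrays), against 0.49 and 0.44 for Asb8 A_52_P10932. The points share their animals, slides and the scaling of each array, so these values describe the 20 arrays and carry no test.

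For Asb5 and Asb15 the value depended on the Asb15 probe. Over all arrays with both spots r was 0.67 for A_52_P1101647 (17 arrays), 0.76 for A_52_P416899 (18) and 0.20 for A_51_P160897 (18). Asb5 and Asb10 gave r = -0.21 within 9 dnHDAC4/5 arrays and 0.45 within 8 empty-vector arrays.

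**Figure D4:**
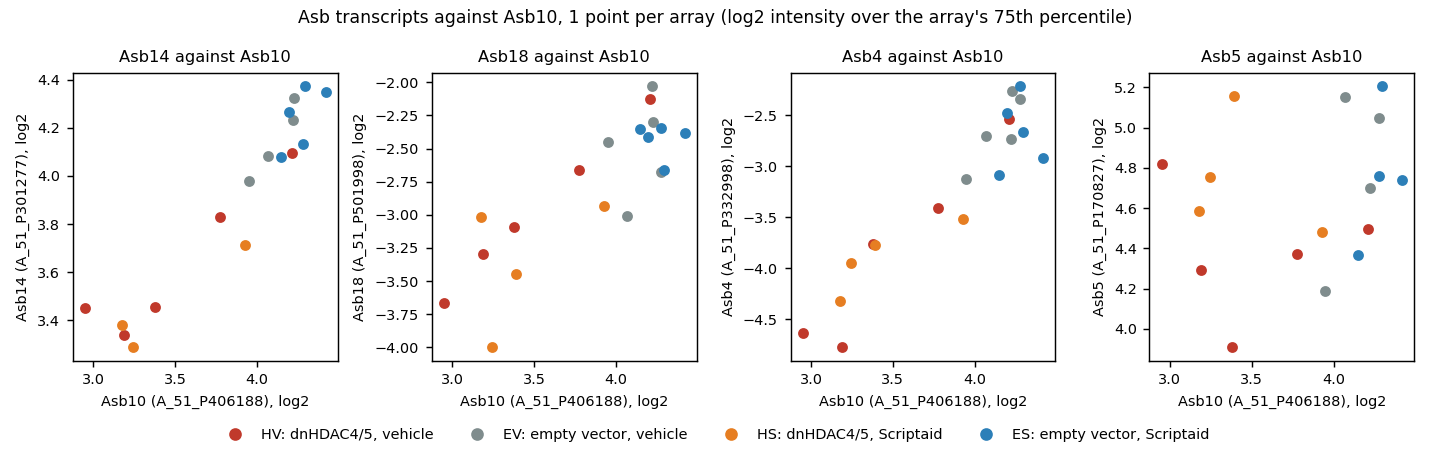
Log2 values of Asb14, Asb18, Asb4 (probe A_51_P332998) and Asb5 against Asb10, 1 point per array, coloured by group. The first 3 panels show points along a common slope with the HS and most HV points at the low end, and the Asb5 panel shows none.

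Those most like each member were found by Pearson's r among 9766 other genes with a value on all 20 arrays. Genes read from edge probes and clone or locus names were left out of this search. Asb10 was most like Pitpnc1 (a phosphatidylinositol transfer protein, r = 0.95), Dnajb5 (a heat shock co-chaperone, 0.93) and Dhrs7c (a dehydrogenase of the sarcoplasmic reticulum, 0.92), over 19 arrays. Asb14 was most like Hhatl (0.94), Ccdc146 (0.93) and Slc26a6 (an anion exchanger, 0.93), over 18 arrays. Asb18 was most like Ntf5 (a neurotrophin, 0.95), Kbtbd13 (a kelch adaptor of cullin 3, 0.91) and Capn3 (the muscle calpain, 0.91), over 20 arrays. Without EV 5 the r of these 9 genes lay between 0.91 and 0.95.

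The genes nearest to Asb4 were Prepl, Sbk1 and Ppp2r3a, each at r = 0.93 over 20 arrays, but that likeness rested on EV 5. Without it r was 0.64 for Prepl, 0.64 for Sbk1 and 0.73 for Ppp2r3a. Ppp2r3a, a regulatory subunit of protein phosphatase 2A, read -3.75 in EV 5, against 3.11 to 3.35 in the other EV arrays. Asb2 was most like Pdzrn3 (a RING ligase, 0.88), Arpc5l (0.86) and Cyb5b (0.85) over 19 arrays, and Asb5 most like Hipk1 (0.88), Pdcd6ip (0.87) and Trim24 (0.86) over 18. Asb15 was most like Pou5f2 (0.79), Col7a1 (0.72) and Nedd4l (a HECT ubiquitin ligase, 0.70) over 19 arrays, and Asb8 most like Repin1 (0.70), Rab12 (0.68) and Smarcb1 (0.68) over 20.

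The other genes of the pathway were tested in limma, with p-values adjusted over all 15738 genes. Of the other Asb genes, 6 of the 8 on the array were measured, and 0 were called in any of the 6 comparisons, with 0 to 1 per comparison at an unadjusted p under 0.05. In the averaged vector comparison their median was 0.04, with 3 higher and 3 lower and 1 at an unadjusted p under 0.05. That 1 was Asb13, at -0.86 ± 0.35 (adjusted p = 0.301), read from an edge probe with values of 1.2, -1.01, -0.71, -0.84 and -1.01 in HV, against 0.57 to 0.93 in EV. Under Scriptaid the edge probe read 1.16, 0.94, 1.18, -1.95 and 0.86 in HS, against 0.56 to 1.12 in ES. A second Asb13 probe away from the edges read -0.39 to -0.18 in HV, against -0.66 to -0.19 in EV. This second probe read 0.12, -0.30, 0.25, 0.07 and 0.34 in HS, mostly above the -0.52 to -0.20 in ES. Asb7 differed by 0.21 ± 0.11 in the averaged vector comparison (adjusted p = 0.473). Between ES and EV, Asb7 differed by -0.20 ± 0.15 and Asb3 by -0.11 ± 0.11 (both at an adjusted p of 1.0).

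The ligase core is the machinery that Asb proteins share, such as cullin 5, Rnf7, the elongins and the enzymes that attach and remove NEDD8. All 15 measured genes stayed on the uncalled side in all 6 comparisons. Their median vector difference was 0.01 and their range -0.20 to 0.12, with 0 at an unadjusted p under 0.05 in the averaged comparison and 1 in Scriptaid animals. The genes of smallest p were Dcun1d1, which promotes neddylation, at -0.20 ± 0.12 (adjusted p = 0.561), and Cand1, which exchanges substrate receptors on cullins, at 0.12 ± 0.08 (adjusted p = 0.632). Between ES and EV, Nae1 of the NEDD8 activating enzyme differed by -0.20 ± 0.14 and Ube2m, which passes NEDD8 on, by 0.14 ± 0.16 (both at an adjusted p of 1.0).

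The 16 other SOCS-box receptors (Socs, Spsb, Wsb and Rab40 genes) also had 0 calls in limma, with 0 to 3 per comparison at an unadjusted p under 0.05. In the averaged comparison 11 were higher and 5 lower, with 1 at an unadjusted p under 0.05. This was Rab40b, at -0.37 ± 0.17 (adjusted p = 0.376). Socs5, an inhibitor of cytokine and growth factor signals, read -0.08, -0.38, -0.28, -0.39 and -0.18 in ES, against -0.58, -0.50, -0.56, -0.60 and -0.48 in EV, which did not overlap. Of all genes, 0.718% lay higher in ES without overlap. Its difference was 0.28 ± 0.11 (adjusted p = 1.0), and that of Socs7 was -0.60 ± 0.21 (adjusted p = 1.0). Socs7 was not well above background on ES 1, ES 2, ES 5, EV 3 and EV 5, so the size of its difference is uncertain.

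Among 13 proteins described as substrates or partners of Asb proteins, Hif1an, the asparagine hydroxylase that Asb4 binds, was the only gene called. It read -0.88, -3.57, -4.20, -3.78 and -4.88 in HS, against -0.37, -0.72, -1.0, 0.69 and -1.86 in ES and -0.80, -0.38, 0.06, -0.10 and -0.82 in HV. The difference was -2.81 ± 0.60 for HS minus ES (adjusted p = 0.0232) and -3.05 ± 0.60 for HS minus HV (adjusted p = 0.0113). The spots of HS 3, HS 4 and HS 5 were not well above background, so the size of these differences is uncertain, and the probe lies in the edge zone. Without edge spots the gene was read by other probes, the differences were -0.06 (adjusted p = 0.96) and -0.29 (adjusted p = 0.644), and both calls ended. The other 12 partners were called in no comparison.

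Activin and myostatin signalling has been placed upstream of Asb2 in mouse muscle. Of its 13 measured genes 0 were called, with 0 to 1 per comparison at an unadjusted p under 0.05, and 10 were higher and 3 lower in the averaged comparison, with a median of 0.15. The smallest p was that of Acvr1b, the type I activin receptor ALK4, at -0.57 ± 0.15 (adjusted p = 0.0854). It read 1.91, 1.90, 1.98, 1.99 and 2.49 in HV, against 2.25, 2.40, 1.89, 2.83 and 2.73 in EV, and 2.02, 1.29, 2.52, 1.93 and 1.49 in HS, against 2.62, 2.69, 2.49 and 2.65 in ES. Both pairs of groups overlapped. It was called without HV 5 (adjusted p = 0.0465) and without HS 3 (adjusted p = 0.028). Smad3 differed by 0.38 ± 0.19 (adjusted p = 0.442), and Smad4 in empty-vector legs by 1.09 ± 0.63 (adjusted p = 1.0), where EV 5 read -1.36, against 3.11 to 3.55 in the other EV arrays.

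**Figure D5:**
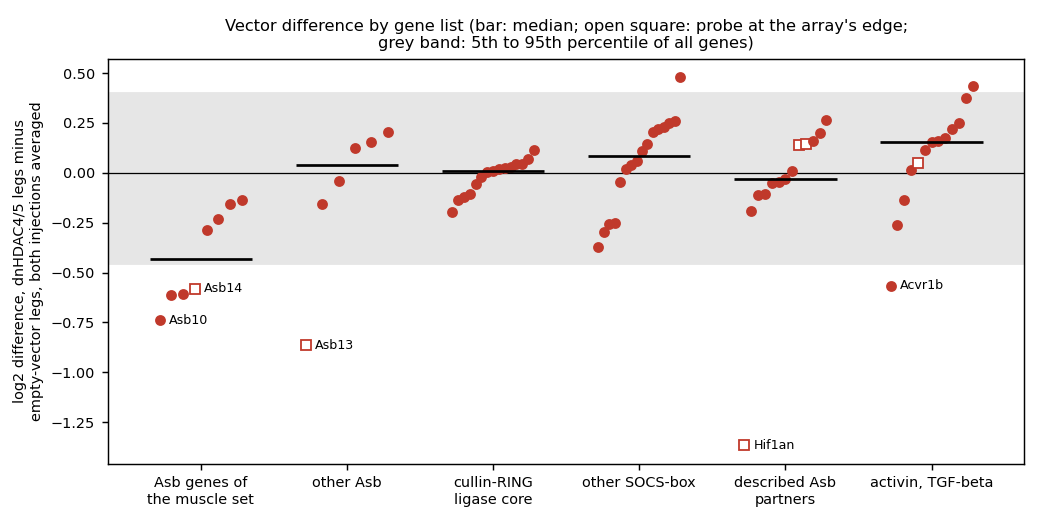
Log2 difference between dnHDAC4/5 and empty-vector legs averaged over both injections (vertical axis), 1 point per gene, for the muscle Asb genes and the 5 other lists, with a bar at each list's median. The muscle Asb median is -0.43, and the medians of the other lists lie between -0.03 and 0.15.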

How the data were processed

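One array per leg was analysed, 5 in each of 4 groups, with groups and animals taken from the labels. Per the file headers, the authors read 1 colour (Cy3) on Agilent arrays with Agilent Feature Extraction 9.5.1.1, which subtracted background and detrended each array to give the deposited processed intensities. The deposited series table holds the ratio of these intensities to a constant of each array. It matched the scanner values within 1% on 100% of the spots compared. These were the 5508 to 6524 spots per array with a ratio above 1, and dimmer spots were not compared. How the constants were set is not given in the sources used here.

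The log2 processed intensity minus the array's 75th percentile was used, without control spots and without 12539 spots marked non-uniform or as population outliers. Of 41174 probes, 23623 were kept (well above background on at least 5 arrays, at least 3 arrays left per group), and a gene was read from its kept probe of highest mean. All 15738 genes were fitted in limma 3.58.1 (R 4.3.3), with group means, eBayes and Benjamini-Hochberg adjustment, called at an adjusted p under 0.05. Two-sided tests were used throughout, and the fit was first tested on simulated data. The number of arrays limits the precision. Legs of different animals are the replicates, and each p-value sets a difference against the spread between legs within groups. The main fit does not use the pairing of the legs of an animal, and the animal as a block was an alternative.

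The 10 Asb genes and all gene lists were chosen with earlier results of these data known, and the edge zone was set after the HS arrays had been seen. Named in the text are all 10 genes, the genes of other lists that were called or, in a list without a call, the 2 of smallest p in the averaged vector comparison and in ES against EV, and the 3 genes most like each member. The animal labels pair the legs. Over 13653 genes, the deviations of the 2 legs of an animal from their group means correlated at 0.03 to 0.41. Alternatives were normexp correction with an offset of 50, quantile normalization, no filter and a stricter one, no edge spots, marked spots kept, the mean of all probes, the animal or the slide as a block, the series table, and each array left out in turn. Promoter windows came from a RefSeq table, and no protein sequence or whole genome was used here.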

Additional observations from a re-analysis of the deposited data

Results flagged for a closer look

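Of 48 groups of 4 or 5 arrays examined over the Asb probes, 3 had 1 array far from the others by Dixon's criterion, which chance marks in about 1 of 20 groups. Asb4 on probe A_52_P594756 read -4.34 in EV replicate 5, against 1.15 to 2.05 in the other EV arrays. Asb15 on its dim probe A_51_P160897 read -2.46 in HS replicate 1, against -3.78 to -3.42 in the other HS arrays. Asb18 read -2.66 in ES replicate 2, against -2.41 to -2.35 in the other ES arrays. The causes were not tested.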

How the results depend on the processing

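The 2 pathway calls, both of Hif1an, depended on the processing. For HS minus ES, 1 pathway gene was called, and 0 with normexp, without edge spots, with the series table and with the mean of all probes. For HS minus HV, 1 was called, and 0 without edge spots and with the series table. Leaving out each array in turn gave 0 to 1 calls for HS minus ES, 1 to 2 for HS minus HV (2 without HS 4, Asb13 and Hif1an), 0 to 1 for the averaged vector comparison (1 without HV 5, HS 3 or HS 1) and 0 to 1 for the interaction (1 without HS 1). With the animal as a block the pathway counts stayed at 1 for HS minus ES and 0 for the other vector comparisons and the interaction. The averaged differences were then -0.76 for Asb10 and -0.56 for Asb14, which lost its call. Scriptaid and vehicle were given to different animals, so for these comparisons the block was the slide. The pathway counts then stayed at 1 for HS minus HV and 0 for ES minus EV. Over all genes the averaged comparison had 172 calls, against 265 with the animal block, 405 with the slide block, 72 with no filter, 87 without edge spots and 105 with the series table. Leaving out 1 array moved it to between 78 (without HV 1) and 328 (without HV 5), with 80 to 102 without EV 2, EV 4, HV 2, HV 4, HS 5, ES 1, ES 2 or ES 4 and 270 without HS 2. For HS minus ES the 195 calls became 60 without edge spots, 91 with the series table, 322 with no filter, 359 with the slide block, 112 to 118 without ES 1, ES 2, ES 4 or HS 5, and 347 without HS 2. For HS minus HV the 202 calls became 80 without edge spots, 109 with the series table, 376 with the slide block, 133 without HV 2 and 439 without HS 2. The interaction's 28 calls became 0 without edge spots, 4 with the series table, 83 with normexp and 52 without HS 2, and HV minus EV had 3 in place of 0 without HV 5. Under normexp the split of higher and lower calls was 13 and 218 for HS minus ES (84 and 111 as reported), and 9 and 200 for HS minus HV (100 and 102 as reported).

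The median Asb difference for ES minus EV was 0.07 and 0.43 with normexp. Over the alternatives other than left-out arrays, the median lay between -0.45 and -0.10 for HV minus EV and between -0.64 and -0.27 for HS minus ES. The member calls by setting are given as a description. The genes were chosen with these contrasts known, so nothing is read from which calls stayed. In the averaged vector comparison 172 of 15738 genes were called as reported, and 201 with normexp. Asb10 was called there without each of the 20 arrays and under every alternative except normexp. Asb14 lost its call under normexp, with no filter, with the animal block and in 10 of the 20 left-out arrays, and has no value without edge spots. In HS minus ES, Asb10 was called with quantile normalization, the stricter filter, marked spots kept and the series table, and Asb14 with the same alternatives except the stricter filter. Of all genes, 238, 237, 202 and 91 were called in these settings, in the same order. Asb4 was called in the averaged comparison with the series table, where 105 of 14180 genes were. In the averaged comparison Asb18 also fell under 0.05 in an alternative, and over the alternatives 72 to 405 of all genes were called. It stayed uncalled in 19 of the 20 left-out arrays, where 78 to 328 of all genes were called. No reported median or call changed its direction. The cause of these shifts was not tested.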
